A study of Drosophila melanogaster with 2 samples.

Results

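The 10 mature microRNAs described here come from 5 fly hairpins, mir-8, mir-33, mir-278, mir-275 and mir-305. Of these, mir-8, mir-33, mir-278 and mir-305 are tied to the fat body, to lipid handling or to insulin signalling. mir-275 is the genomic neighbour of mir-305. The 10 products were chosen by name, from dme-miR-8-5p and dme-miR-8-3p through dme-miR-33-5p, dme-miR-33-3p, dme-miR-278-5p, dme-miR-278-3p, dme-miR-275-5p and dme-miR-275-3p to dme-miR-305-5p and dme-miR-305-3p. The species prefix is left out below. Every known mature product of these hairpins was taken, and all 10 were listed in both libraries, out of 233 known products in the control and 228 in the other library. Small RNA of 18 to 30 nt was sequenced from heads of female Drosophila melanogaster of the wild-type strain Canton-S, adults of 3 to 5 days. Control flies spent 45 minutes in a stream of air without ethanol. Ethanol flies spent 15 minutes in ethanol vapour, which sedated all of them, followed by 30 minutes in air without ethanol. Each group is 1 library from a pool of about 180 flies, so no test between the treatments was possible, and treatment and library cannot be told apart.

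A microRNA is cut from one of the arms of a hairpin precursor, named 5p or 3p, and lowers the output of messenger RNAs that pair with its seed, bases 2 to 8. The fly fat body, which also lies in the head, stores fat, as adipose tissue and liver do in mammals, and answers to insulin-like peptides. In the fly fat body miR-8 promotes insulin signalling and body growth by repressing u-shaped, and miR-278 takes part in energy homeostasis and insulin responsiveness by way of expanded. miR-33 is encoded inside the gene of SREBP, the transcription factor that drives lipid synthesis genes, and lowers lipid breakdown and export genes in mammals. miR-305 acts in the insulin and Notch pathways of intestinal stem cells in the fly, and its neighbour miR-275 is needed for blood digestion and egg development in the mosquito Aedes aegypti.

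The annotation of Ensembl release 115 on BDGP6, a later build than the BDGP5 of the submitters' processing notes, places all 5 hairpins on the plus strand of their chromosome arms. mir-33 lies on chromosome arm 3L within an intron of all 4 annotated transcripts of SREBP. mir-275 and mir-305 are neighbours on 2L with 0 annotated genes between them. mir-275 lies within an exon of both transcripts of lncRNA:CR43857, which ends before mir-305. Coordinates are not given because the builds differ.

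Sequences are shown for the products of mir-33 and of the mir-275 and mir-305 neighbours, which carry the arm and neighbour comparisons below, as the deposited tables list them, in DNA letters, 5′ to 3′, with the seed in capitals.
miR-33-5p: gTGCATTGtagtcgcattgtc
miR-33-3p: cAATACAActtcagtgcaagct
miR-275-5p: cGCGCTAAtcagtgaccggggct
miR-275-3p: tCAGGTACctgaagtagcgcgcg
miR-305-5p: aTTGTACTtcatcaggtgctctg
miR-305-3p: cGGCACATgttgaagtacactca
miR-306-5p: tCAGGTACttagtgactctcaa
The last of these is no product of the 5 hairpins. It is shown because it was the 1 other known product in the libraries with the seed of miR-275-3p; it also lies on 2L and was named after its values were seen, 122 control and 106 ethanol reads. Each of the other 9 products of the 5 hairpins had a seed held by no other of the 240 known products. The sequences of all 10 differed from every other known product by at least 7 edits.

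Both neighbours on 2L carry some of the same letters. The 6 letters TCAGGT, searched on the sense strand, stand at positions 1 to 6 of miR-275-3p and 12 to 17 of miR-305-5p, counted from the 5′ end, and are held by 3 of the 10 products and by 6 of all 240. The first 12 bases of miR-275-3p, tcaggtacctga, read the same on both strands. A palindrome of 12 or more bases was found in 2 of the 240 products, the other being miR-4913-3p, which was named after the search. Between the arms of mir-305 the longest run that can pair without a gap or mismatch is 9 bases, tgtacttca in the 5p arm. These features were looked up after the sequences had been read and are descriptions.

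The deposited total for the control library was 17337082 reads, and the reads of known mature miRNAs used here were 13692046, or 78.98% of it. For the ethanol library these were 17600983 and 13128478, or 74.59%. What the deposited total counts is not given. RNA integrity, per the labels, was 6.80 on the RIN scale in the control and 6.40 in the ethanol sample, and its part in the ratios was not tested. Levels are given as CPM, the reads of a product scaled to a common total of known miRNA reads, and ratios as ethanol CPM over control CPM, with exact 95% intervals. Such intervals cover the error of counting reads alone. Spread between libraries is not in them, and PCR copies, without molecular identifiers, were counted as reads. A product was compared if it had at least 100 reads in all, which 168 products had, and 6 of these (3.57%) differed at least 2-fold. Each read spans a whole product, so no scaling by length was applied, and a level compared between different miRNAs is one of reads, since adapter ligation differs between sequences. The muscle miRNA miR-1-3p had a ratio of 0.96, miR-133-3p of 0.82 and miR-133-5p of 0.76, and miR-1-5p had 48 and 31 reads. The gut products miR-281-2-5p, miR-281-1-5p and miR-281-3p had ratios of 1.06, 0.95 and 0.99. The neuronal products miR-124-3p and miR-124-5p were 1.93-fold and 1.84-fold lower in the ethanol library, and their share in the results below was not tested. No fat body marker outside the 10 products was at hand, so the label could not be checked against the data, and which head cells their reads came from was not tested. In whole heads, fewer cells of a type and less RNA per cell cannot be told apart.

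Together the 10 products had 870521 reads in the control library, 6.36% of its miRNA reads (6.34 to 6.37%), and 790444 in the ethanol library, 6.02% (6.01 to 6.03%). The 5 hairpins differed widely in reads. mir-8 took 2.59% in the control library and 2.75% in the ethanol library, mir-33 2.01% and 1.75%, mir-275 1.38% and 1.18%, mir-305 0.307% and 0.29%, and mir-278 0.0665% and 0.0543%. Of the products, 4 were among the 9 with the most reads in both libraries: miR-33-5p, miR-8-3p, miR-275-3p and miR-8-5p. The rarest, miR-275-5p, ranked 122 of 168 in the control library and 126 in the ethanol library.

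**Figure D1:**
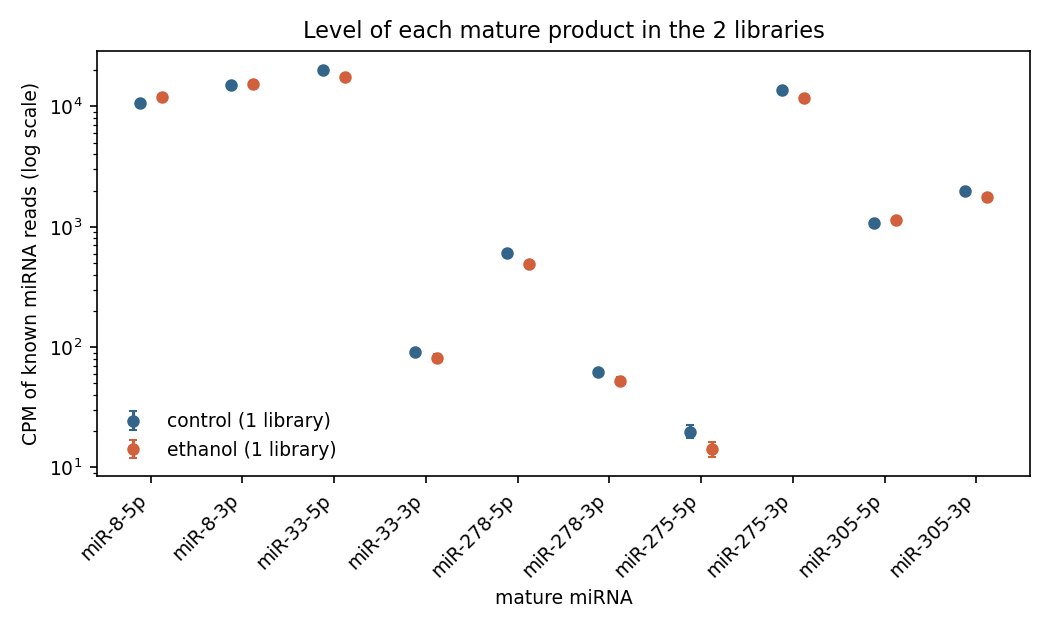
Level of each of the 10 mature products in the control (blue) and ethanol (orange) library, in CPM on a log axis, with exact 95% counting intervals that are mostly smaller than the points. Levels run from 19.9 to 19995 CPM in the control library and from 14.2 to 17423 CPM in the ethanol library, and the points of a product lie close together beside that range.

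No product of the 5 hairpins differed 2-fold between the libraries, against 3.57% of all compared products, and none differed 1.5-fold in CPM, against 23.2%. In the ethanol library 7 of the 10 were lower and 3 higher by CPM, with 9 lower under the authors' scaling, where miR-8-3p and miR-305-5p change sides. Ratios below 1 were found for 51.2% of all compared products by CPM and for 59.5% under the authors' scaling. The counting interval lay below 1 for 7 of the 10, against 38.1% of all, and above 1 for 3, against 36.9%. The 10 products have more reads than most, a median of 40051 over both libraries against 2733 for all 168, which narrows their intervals. Their median log2 ratio was -0.19, against -0.020 for all compared products, and 8 of the 10 lay between the quartiles of all products, -0.28 and 0.32. The spread between libraries of 1 treatment is unknown here.

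**Figure D2:**
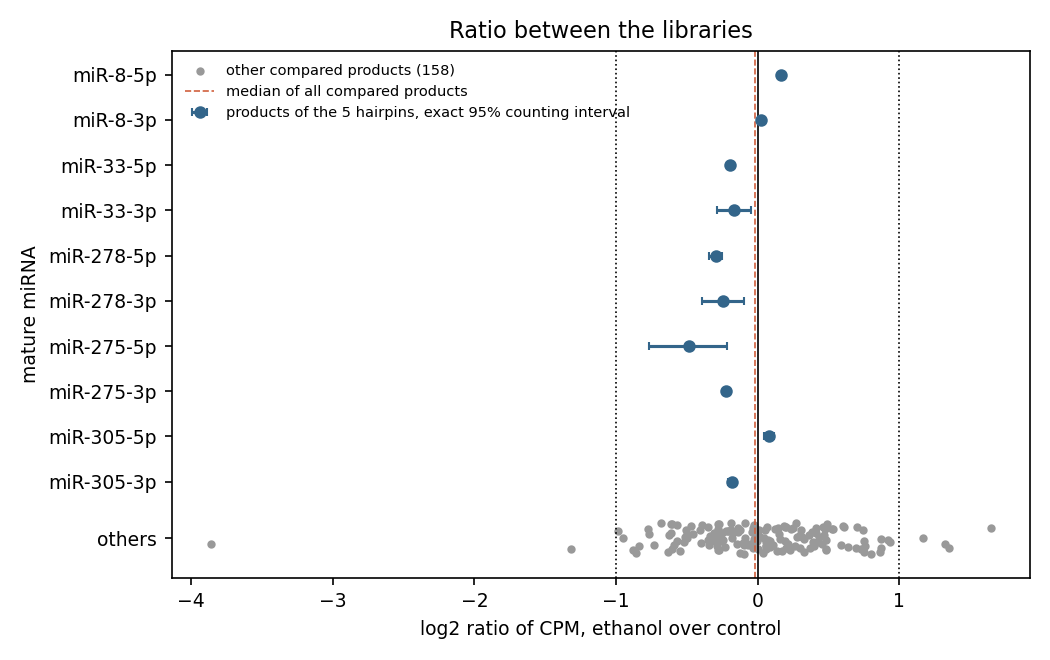
Log2 ratio of CPM, ethanol over control, for the 10 products (blue, with exact 95% counting intervals) and for the other 158 compared products (grey, spread vertically for visibility). The dotted lines mark 2-fold either way and the dashed line the median of all compared products; the 10 products lie between -0.49 and 0.16.

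The mir-8 hairpin lies on 2R, within an exon of both annotated transcripts of the non-coding RNA lncRNA:CR43650. miR-8-3p, the arm that represses u-shaped, had 207879 control and 202374 ethanol reads, or 15182.5 and 15414.9 CPM. Its ratio was 1.02 (1.01 to 1.02), the nearest to 1 of the 10, and it lay on the other side of 1 under the authors' scaling. miR-8-5p had 147248 and 158027 reads, or 10754 and 12037 CPM, a ratio of 1.12 (1.11 to 1.13). This arm was the highest in ratio of the 10, and it stayed above 1 under every scaling tried. The hairpin gave many reads from both arms: the 3p share was 58.5% (58.4 to 58.7%) in the control library and 56.2% (56.0 to 56.3%) in the ethanol library, with 1.10-fold lower odds of 3p (1.09 to 1.11).

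miR-33-5p was the most abundant of the 10, with 273771 control and 228740 ethanol reads, or 19995 and 17423 CPM. It was 1.15-fold lower in the ethanol library (1.14 to 1.15). Its partner miR-33-3p had 1258 and 1075 reads, or 91.9 and 81.9 CPM, and was 1.12-fold lower (1.03 to 1.22). The arms of mir-33 thus had ratios whose intervals overlap, and 5p reads made up 99.5% of the hairpin in both libraries. Per 5p read the odds of a 3p read changed 1.02-fold (0.94 to 1.11), an interval that holds 1. Set against the most abundant product of mir-8, there were 132 reads of miR-33-5p per 100 reads of miR-8-3p in the control library and 113 in the ethanol library, 1.17-fold fewer (1.16 to 1.17). Such a ratio within a library is free of the scaling, but the guanine correction given below changes it.

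The mir-278 hairpin lies on 2R, within a non-coding part of an exon of 1 of the 3 annotated transcripts of the protein-coding gene CG42524. miR-278-5p had 8264 control and 6451 ethanol reads, or 604 and 491 CPM, and was 1.23-fold lower in the ethanol library (1.19 to 1.27). miR-278-3p, the arm that RefSeq lists by name among the synonyms of the gene, had 846 and 684 reads, or 61.8 and 52.1 CPM, and was 1.19-fold lower (1.07 to 1.31). Both arms were lower by a like amount, and the 5p arm had 9.77 reads for each 3p read in the control library and 9.43 in the ethanol library. The arm listed by name was thus the rarer in both, and the odds of 3p against 5p changed 1.04-fold (0.93 to 1.15), an interval that holds 1. mir-278 had the lowest ratio of the 5 hairpins with both arms summed, 1.22-fold lower (1.19 to 1.26).

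miR-275-3p had 188928 control and 154860 ethanol reads, or 13798 and 11796 CPM, and was 1.17-fold lower in the ethanol library (1.16 to 1.18). In the control it stood above miR-8-5p and in the ethanol library below it, the 1 place where the order of the 10 levels differs between the libraries. At each step of that order the counting intervals of neighbours do not overlap, in either library. miR-275-5p had 272 and 186 reads, or 19.9 and 14.2 CPM, and was 1.40-fold lower (1.16 to 1.70), the lowest ratio of the 10 and the one with the fewest reads. Its interval holds the whole interval of miR-278-5p, so the counts alone do not place it lowest. After the guanine correction given below miR-33-3p was the lowest. The 3p arm of mir-275 made up 99.86% of the hairpin in the control library and 99.88% in the ethanol library. The odds of 3p in mir-275 changed 1.20-fold (0.99 to 1.45), an interval that holds 1.

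miR-305-3p had 27275 control and 23062 ethanol reads, or 1992 and 1757 CPM, and was 1.13-fold lower in the ethanol library (1.11 to 1.15). miR-305-5p, the arm that RefSeq lists by name for this gene, had 14780 and 14985 reads, or 1079 and 1141 CPM, a ratio of 1.06 (1.03 to 1.08) that lay just below 1 under the authors' scaling. The 3p arm was therefore the more abundant in both libraries. Its share was 64.9% (64.4 to 65.3%) in the control library and 60.6% (60.1 to 61.1%) in the ethanol library, with 1.20-fold lower odds (1.17 to 1.23). mir-305 was the 1 hairpin of the 5 with arms on opposite sides of 1, which 49.2% of the 61 hairpins with both arms compared showed. Under the authors' scaling both of its arms lay below 1, mir-8 was instead the 1 hairpin with arms on opposite sides, and 45.9% of the 61 showed this. After the guanine correction given below, both mir-8 and mir-305 had arms on opposite sides, against 36.1% of the 61.

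**Figure D3:**
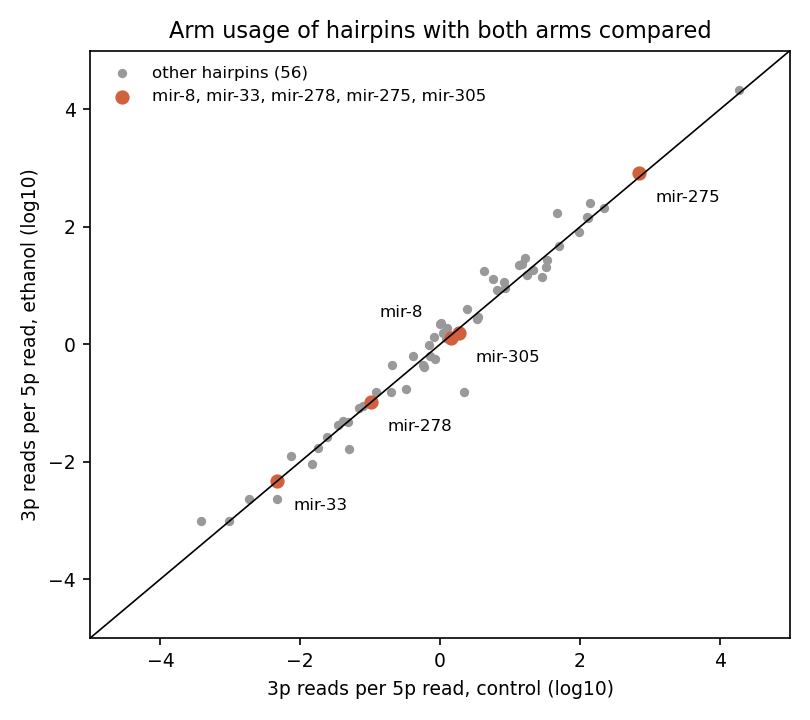
Reads of the 3p arm per read of the 5p arm, as log10, in the control (x axis) and the ethanol library (y axis), for the 61 hairpins with both arms compared; the line marks equal values. The 5 hairpins (orange) run from mir-33, nearly all 5p, to mir-275, nearly all 3p, and all lie close to the line.

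The arm ratio differed 2-fold in none of the 5 hairpins, against 18.0% of the 61. The counting interval of the odds held 1 for mir-33, mir-278 and mir-275, and excluded it for mir-8 and mir-305, in both towards 5p. Most of the 61 hairpins had an interval that excluded 1, some towards 5p and others towards 3p. Whether an interval excludes 1 also depends on the reads. mir-275 and mir-305 both changed 1.20-fold, in opposite directions, but miR-275-5p had only 272 control and 186 ethanol reads. Without the guanine correction given below, the shift of each of the 5 hairpins was smaller than the median over all 61 hairpins, 1.27-fold either way. The correction enlarges the shift of mir-33, to -0.31 in log2 odds.

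The neighbours mir-275 and mir-305 were also compared with each other within each library. There were 7.82 reads of miR-305-5p per 100 reads of miR-275-3p in the control library and 9.68 in the ethanol library, a 1.24-fold change in odds (1.21 to 1.27). With the other arm the values lay closer: 14.4 reads of miR-305-3p per 100 of miR-275-3p in the control library and 14.9 in the ethanol library, 1.03-fold (1.01 to 1.05). In CPM the more abundant arms of the neighbours thus lay closer to the same proportion than miR-305-5p and miR-275-3p did, and the guanine correction given below turns this around.

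Over the 168 compared products, the log2 ratio was lower where the mature sequence held more guanine, with Spearman's rho of -0.50 and Pearson's r of -0.38 across miRNAs, which are not replicates and share the same pair of libraries. Guanine made up 34.8% of both arms of mir-275, 31.8% of miR-278-3p, 28.6% of miR-33-5p and 26.1% of miR-278-5p, all of them lower in the ethanol library. It made up 22.7% of miR-8-5p and 21.7% of miR-8-3p and miR-305-5p, which were higher in CPM. It also made up 21.7% of miR-305-3p and 13.6% of miR-33-3p, which were lower. After the linear trend on guanine was taken out, the log2 ratio of miR-275-3p was -0.0025 (-0.23 before) and that of miR-33-5p -0.12 (-0.20 before). miR-33-3p moved the other way, from -0.17 to -0.43, and miR-8-3p went from 0.022 to -0.053. The arms of mir-305 have the same guanine share, so their difference, -0.26 in log2 odds, is the same with and without the trend. The log2 change of miR-305-5p against miR-275-3p went from 0.31 to 0.0084, and that of miR-305-3p against miR-275-3p from 0.045 to -0.25. For miR-33-5p against miR-8-3p it went from -0.22 to -0.064. The log2 odds of 3p against 5p in mir-33 went from 0.032 to -0.31, which turns its direction and lies beyond its counting interval. The part of guanine content in the ratios was not tested.

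**Figure D4:**
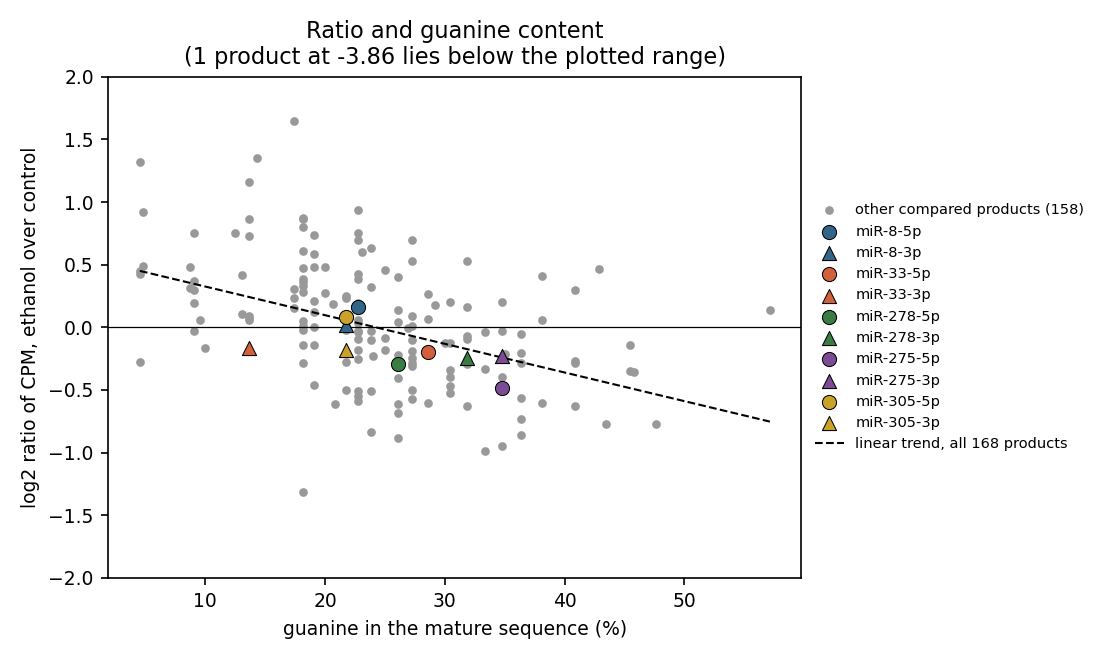
Log2 ratio of CPM, ethanol over control, against the guanine share of the mature sequence, for the 10 products (coloured by hairpin, circles 5p and triangles 3p) and the other 158 compared products (grey), with the linear trend over all 168. miR-275-3p lies on the trend, and miR-33-3p, at 13.6% guanine, lies below it.

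**Figure D5:**
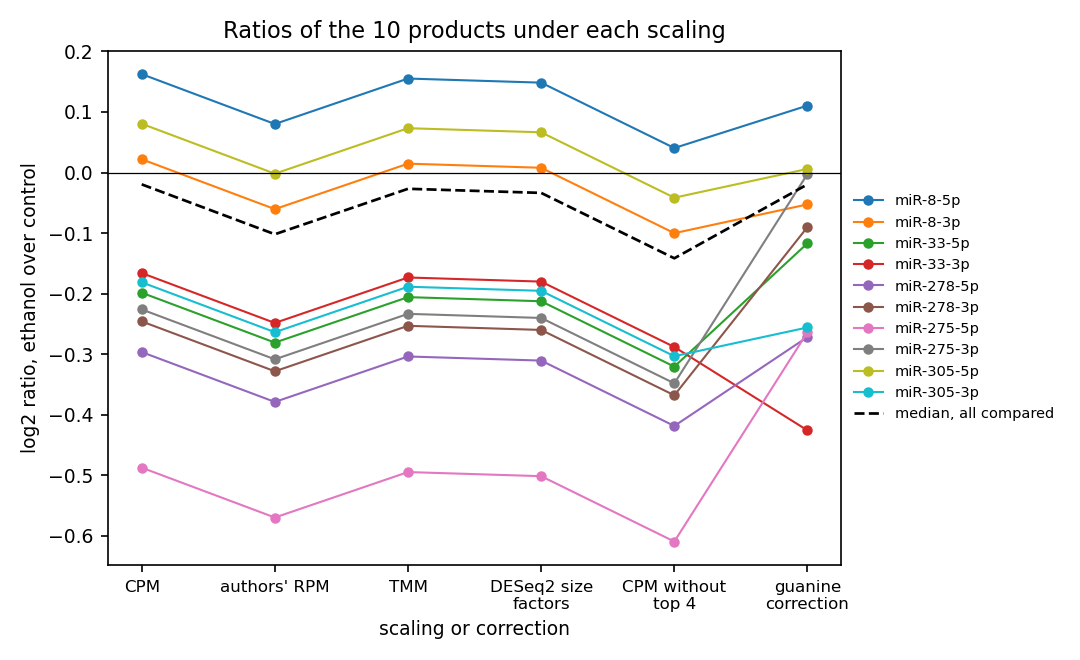
Log2 ratio of each of the 10 products under 5 scalings and after the guanine correction, with the median of all compared products as a dashed line. Another scaling shifts all products together, so that the same 7 lie below the median of all products under each scaling, while the correction changes their order.

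Outside the 5 hairpins, the products nearest in level over the 2 libraries were miR-932-5p for miR-278-5p, with 8129 and 6545 reads, and miR-190-5p for miR-305-3p, with 24794 and 22377 reads. Their distances on the log2 CPM scale were 0.032 and 0.14, and their ratios were 0.84 and 0.94. The match used the levels in both libraries, so a product this near has a like ratio by the way it was chosen. For the most abundant arms no product was so near: miR-263a-5p was the nearest to miR-8-3p and to miR-275-3p, at 1.41 and 1.12, and miR-276a-3p to miR-33-5p, at 1.61. miR-263a-5p and miR-276a-3p had ratios of 1.37 and 1.83, above all 10 products.

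Other hairpins with roles in fat storage, growth, insulin or nutrient signalling in the fly (mir-14, mir-277, mir-9a, mir-184, let-7, bantam and mir-310 to mir-313) gave 17 listed products, of which 13 had at least 100 reads. Of these, 7 had a ratio above 1 and 6 below, and none differed 2-fold. Their median log2 ratio was 0.061, which became -0.022 under the authors' scaling, so its sign depends on the scaling. miR-184-3p, which had the most reads, 3498548 and 4119778, had a ratio of 1.23. let-7-3p, the rarer arm of a developmental timing miRNA, was the highest with a ratio of 1.66 (1.5 to 1.83). miR-277-5p, from a hairpin that controls the breakdown of branched-chain amino acids, was the lowest, 1.98-fold lower (1.94 to 2.03). The 10 products thus spanned log2 ratios from -0.49 to 0.16 and this list from -0.99 to 0.73, a difference between lists that was not tested.

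In the authors' deposited table of known miRNAs none of the 10 products is among the 14 of 196 marked as different. The mark was taken as deposited, and its absence does not show that a product was unchanged. The log2 ratios of RPM in the authors' deposited table run from -0.57 for miR-275-5p to 0.080 for miR-8-5p, which is the 1 product of the 10 above 0 there. That of miR-305-5p in the authors' deposited table is -0.0019.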

How the data were processed

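Reads per mature miRNA were deposited by the authors as counts, with the RPM over each library's total read number, per the file headers; only products with 5 or more reads are listed. Per the submitters' processing notes the genome was BDGP5. Not given in the sources used here are the aligner, the counter, the miRNA release and what the total read number counts. The authors' deposited comparison table holds log2 ratios of RPM and p-values, whose test is not given and which are not used here. For 6 names listed more than once the largest count was kept, and miR-276b-5p, identical to miR-276a-5p, was dropped. CPM used all known miRNA reads. A product entered the comparison with at least 100 reads in both libraries together; ratios have exact conditional binomial (Clopper-Pearson) intervals, and arm ratios are exact conditional odds ratios (R 4.3.3). Poisson counts were simulated for 221 products of this comparison, and intervals were computed where a product had at least 100 simulated reads. Of these intervals, 95.5% held the true ratio. Exact intervals reach their level on such counts by construction, so this checks the computation alone. PCR copies and spread between libraries were not simulated. Alternative scalings came from edgeR 4.0.16 (TMM) and DESeq2 1.42.0 (size factors); no p-value was computed, with 1 library per group. The guanine correction subtracts a linear trend over the 168 products and restores their median. Python 3.11.15, pandas 2.3.3, numpy 2.4.6, SciPy 1.17.1 and matplotlib 3.10.9 were used. The hairpins, lists and corrections were chosen with earlier results of these data known. Named products were those of the 5 hairpins, the product nearest in level to each more abundant arm, the most abundant, highest and lowest of the other metabolic list, and every tissue marker; miR-306-5p, miR-4913-3p and the candidates were named after their values or sequences were seen. Gene names and chromosome arms come from RefSeq release 6 and Ensembl release 115.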

Additional observations from a re-analysis of the deposited data

How the results depend on the processing

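No product of the 5 hairpins reached 2-fold under the authors' RPM, TMM, DESeq2 size factors, CPM without the 4 most abundant products, a minimum of 10 reads, summed repeated names or the guanine correction. None reached 1.5-fold in CPM, but without the 4 most abundant products miR-275-5p did, with a log2 ratio of -0.61. The number with a ratio below 1 was 7 in CPM, TMM, size factors, with 10 reads and with summed names, 8 after the guanine correction, and 9 under RPM and without the 4 most abundant products. That last scaling moved the median of all products by -0.12; relative to the median of all products, 7 of the 10 were lower under every setting, with miR-8-3p among them in place of miR-275-3p after the guanine correction. miR-8-3p changed sign under RPM (-0.061), without the 4 most abundant products (-0.10) and after the guanine correction (-0.053). miR-305-5p did so under RPM (-0.0019) and without the 4 most abundant products (-0.042). After the guanine correction the log2 change of miR-305-5p against miR-275-3p was 0.0084 (0.31 before) and the log2 arm odds of mir-33 were -0.31 (0.032 before); the cause was not tested. Depth limits miR-275-5p most, with an interval half-width of 19.2% of its ratio, against 0.556% for miR-33-5p. No paired analysis was possible because each group has 1 library.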

Other observations

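The deposited tables also list candidate miRNAs named by the authors, and 2 of the 99 candidates are antisense to a product described above. Over at least 18 bases, miR-305-5p was the 1 known product with such a candidate in either library. In the control novel_mir_10 had 17 reads, and all of its 23 bases are the reverse complement of miR-305-5p. In the ethanol library novel_mir_70 had 11 reads over 21 bases of the same strand. They are printed 5′ to 3′ because the pair differs at the 3′ end alone, by 2 bases.
novel_mir_10: cagagcacctgatgaagtacaat
novel_mir_70: cagagcacctgatgaagtaca
Set against miR-305-5p these were 1.15 antisense reads per 1000 sense reads in the control library and 0.734 in the ethanol library. The ratio of their CPM was 0.67 (0.29 to 1.53), so at this depth a difference between the libraries was not detectable. The search was made after the sequences had been seen, and whether these reads come from a transcript of the opposite strand was not tested.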
